A study of Mus musculus with 6 samples.

Results

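The genes described here encode the cytoplasmic scaffolds of the tight junction and the junctional adhesion molecules (JAMs): Tjp1, Tjp3, Cgn, Cgnl1, F11r, Jam2, Jam3, Pard3 and Magi1. They were chosen by symbol for the proteins they encode, and these 9 genes were taken from the 57127 listed in the table of counts. All 9 were listed and all 9 were abundant enough to be tested, among 19691 tested genes.

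The study asked how loss of occludin affects the mouse epididymis, and RNA of the whole epididymis was sequenced from adult wild type (WT) and Ocln-/- (Ocln-KO) mice, with 3 libraries of each genotype and C57BL/6 given as the strain of both. According to the study's methods, the Ocln-KO mice were offspring of heterozygous parents. For the RNA, separate extracts of 3 pairs of mice are described, but pooled RNA is mentioned too. Whether each library held the RNA of a single mouse was therefore not given outright, and p-values measure only the spread between these libraries. Total counts were 38870780, 35066211 and 38073990 in WT replicates 1, 2 and 3, and 30646424, 31570990 and 32776523 in Ocln-KO replicates 1, 2 and 3. Levels are given as CPM, counts brought to a common library size with TMM factors, on which 1 count equalled between 0.0267 and 0.0314 CPM.

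The tissue field of the sample records and the study's methods give the epididymis, but the records' text on RNA extraction speaks of prefrontal cortex. Of 8 genes typical of the epididymis, Crisp1 had the highest mean CPM in WT, not corrected for length. It had 14891 ± 2188 CPM in WT against 7852 ± 2982 CPM in Ocln-KO (SD, n = 3 each), and Adam7 had 7457 ± 1301 CPM in WT (SD, n = 3). Crisp1 was not called with all 6 libraries (Benjamini-Hochberg adjusted p = 0.0855 in edgeR's quasi-likelihood test) but was called lower without Ocln-KO replicate 3 (adjusted p = 0.0431, same test and adjustment). The list was not abundant throughout: Lcn9 and Rnase10 were too low to be tested, and Lcn8 and Cst8 had 1.76 and 0.512 CPM in WT. Of 8 genes of cortical neurons and glia, Snap25 and Mog had at most 3 counts in every library. The gene with the highest mean CPM, Mbp, had 10.2 ± 0.43 CPM in WT against 15.7 ± 1.19 CPM in Ocln-KO (SD, n = 3 each). Crisp1 and Adam7 of the epididymal list were thus far above each gene of the cortical list in WT. Mbp was called higher with all 6 libraries and without Ocln-KO replicate 3 (Benjamini-Hochberg adjusted p = 0.0315 and 0.0481, edgeR's quasi-likelihood test).

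Tight junctions seal the space between neighbouring epithelial cells, and in the epididymis they form the barrier that separates the fluid around maturing sperm from the blood. Occludin, the claudins and the JAMs span the membrane, and their tails are held from inside by scaffold proteins with PDZ domains, the zonula occludens (ZO) proteins and the MAGI proteins among them. Cingulin and paracingulin connect these scaffolds to actin and microtubules, and the PAR complex, which JAMs recruit, sets the border between the apical and the lateral membrane.

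Ocln, the deleted gene, was lower in every Ocln-KO library. It had 85.9, 78.8 and 91.8 CPM in WT replicates 1, 2 and 3, and 15.1, 15.3 and 14.9 CPM in Ocln-KO replicates 1, 2 and 3. Its log2 fold change of -2.50 was far larger than the spread between libraries (standard error 0.09, Benjamini-Hochberg adjusted p = 0.000108 in edgeR's quasi-likelihood test). The gene is on chromosome 13 (chr13:100496504-100552718, minus strand, RefSeq annotation of GRCm38.p6). Which part of it the deletion removed was not given in the sources used here, and a count per gene does not tell from which exons the remaining reads came.

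Ocln-KO replicate 3 stood apart from the other libraries. On the first principal component of log2 CPM, which held 47.2% of the variance, the WT libraries were at 43.3, 37.0 and 52.8, Ocln-KO replicates 1 and 2 at -17.7 and -29.1, and Ocln-KO replicate 3 at -86.3. Its summed level of 6 fibroblast genes was 4083 CPM, against 1436 and 1989 CPM in Ocln-KO replicates 1 and 2, and that of 8 spermatid and sperm genes was 97.7 CPM, against 413 and 418 CPM. The tests of the 9 genes and their ratios are therefore given with and without this library.

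Of the 9 genes, Tjp1 and Magi1 were higher in Ocln-KO and none was called lower. Here and below a gene is called at an adjusted p under 0.05 in the quasi-likelihood test of edgeR, with Benjamini-Hochberg adjustment over the whole tested table. Among all 19691 tested genes 3.91% were called higher and 5.04% lower, 8.95% in either direction, so that the share of the 9 was above the background, but it rests on 2 genes of a list chosen with earlier results known, and nothing is read from it. Before adjustment, 3 of the 9 had a p under 0.05, namely Tjp1, Magi1 and, in the lower direction, Cgnl1, which is near the 29.1% of all tested genes that did so; DESeq2 called these 3 genes, beside 16.8% of all tested genes, and limma-voom called Tjp1 and Magi1, beside 9.03%. Changes were small: 0 of 9 genes passed a 2-fold change, which 3.19% of the tested genes did together with the adjusted p. Fold changes were positive for 5 and negative for 4, with a median log2 fold change of 0.03, against 0.01 over all tested genes. No overlap between the genotypes was seen for 3 genes that were higher in Ocln-KO (Tjp1, Cgn and Magi1) and for 1 that was lower (Cgnl1), where 16.9% and 19.4% of all tested genes did so. Without Ocln-KO replicate 3, again 2 were called higher (Tjp1 and Magi1) and 0 lower, against 3.67% and 4.63% of the 20370 genes then tested. Without WT replicate 1, 2 or 3 or Ocln-KO replicate 2, edgeR called 23, 230, 56 and 562 genes in all, against 1762 with all 6 libraries, and 0 of the 9 genes. Without Ocln-KO replicate 1, Tjp1 was called higher and Cgnl1 lower, beside 3.84% and 4.3% of the 20352 genes then tested. Scaled by total counts instead, 1175 genes were called higher and 674 lower, against 770 and 992, and the median log2 fold change over the tested genes moved to 0.09; Tjp1 and Magi1 were again the called genes among the 9. In RNA of a whole organ, fewer cells of a type and less RNA per cell cannot be told apart.

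**Figure D1:**
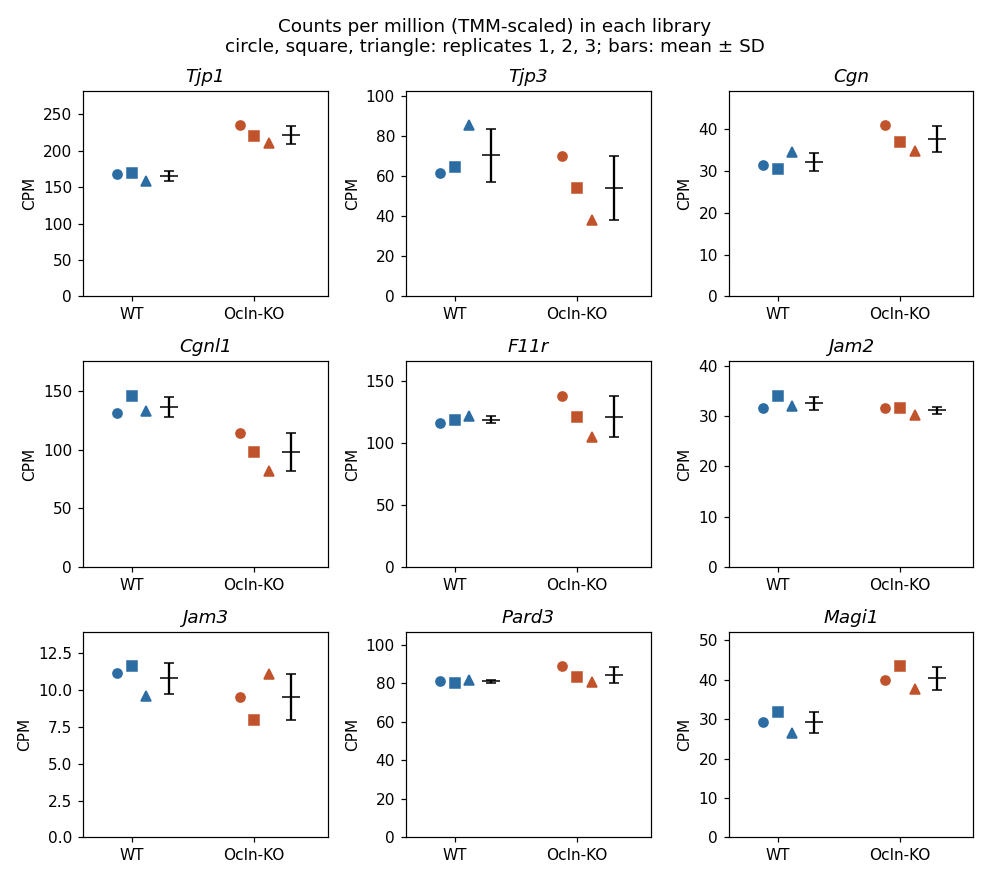
Level of each of the 9 genes in CPM (vertical axes, from 0) in the 3 WT and 3 Ocln-KO libraries, with circles, squares and triangles for replicates 1, 2 and 3 and bars for the mean ± SD. The Ocln-KO libraries lie above each WT library for Tjp1, Cgn and Magi1 and below each WT library for Cgnl1, and the genotypes overlap for the other 5 genes.

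Tjp1 encodes ZO-1, the scaffold that binds the tail of occludin and those of claudins and connects them to actin. It had 169, 170 and 158 CPM in WT replicates 1, 2 and 3, and 235, 220 and 210 CPM in Ocln-KO replicates 1, 2 and 3. Each Ocln-KO library was above each WT library, and the lowest of them, replicate 3, was well clear of the highest WT library. The mean level rose, from 165 ± 6.49 to 222 ± 12.5 CPM (SD, n = 3 each) or by a factor of 1.34. On the log2 scale this was 0.42 (standard error 0.08, 95% interval 0.23 to 0.62, Benjamini-Hochberg adjusted p = 0.0299 in edgeR's quasi-likelihood test). It was 0.46 without Ocln-KO replicate 3 (Benjamini-Hochberg adjusted p = 0.0220, edgeR's quasi-likelihood test).

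The direction for Tjp1 held in each of 15 alternative settings, over which the log2 fold change ran from 0.38 to 0.51 and the adjusted p from 0.000572 to 0.115, with 9 of the 15 under 0.05. Leaving out a library could hardly reverse the direction, since each Ocln-KO library lay above each WT library. Settings that lost the call included those without WT replicate 1, 2 or 3 (Benjamini-Hochberg adjusted p = 0.115, 0.0845 and 0.105, edgeR's quasi-likelihood test) and without Ocln-KO replicate 2 (0.0714). It was also lost with libraries scaled by the summed counts of 10 general epithelial genes, a setting chosen after seeing the data (log2 fold change 0.50, adjusted p = 0.0696, same test and adjustment).

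Tjp3 encodes ZO-3, a ZO protein of epithelia that binds ZO-1. It had 61.5, 64.6 and 85.6 CPM in WT replicates 1, 2 and 3, and 70.2, 54.3 and 38.3 CPM in Ocln-KO replicates 1, 2 and 3. Here the genotypes overlapped, since Ocln-KO replicate 1 was above WT replicates 1 and 2, and the spread was the widest of the 9 genes in either genotype, with a coefficient of variation of 18.6% in WT and 29.4% in Ocln-KO. At -0.38, the log2 fold change was not called (standard error 0.22, 95% interval -0.89 to 0.13, Benjamini-Hochberg adjusted p = 0.297 in edgeR's quasi-likelihood test). It was -0.18 without Ocln-KO replicate 3, the lowest library (adjusted p = 0.521, same test and adjustment), -0.22 without WT replicate 3 (0.638) and -0.60 without Ocln-KO replicate 1 (0.105).

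Within a library, the ratio of Tjp3 to Tjp1 counts needs no scaling between libraries. It was 0.365, 0.381 and 0.542 in WT replicates 1, 2 and 3, and 0.299, 0.247 and 0.182 in Ocln-KO replicates 1, 2 and 3. Each Ocln-KO library thus had fewer Tjp3 counts for each Tjp1 count than any WT library, and WT replicate 3 and Ocln-KO replicate 3 were the farthest apart. The log2 difference was -0.83, with p = 0.1 in a two-sided exact permutation test, which is the smallest p that 3 libraries against 3 allow, and 0.2 after Benjamini-Hochberg adjustment over the 4 ratios computed. Without Ocln-KO replicate 3 the log2 difference was -0.64, and without WT replicate 3 it was -0.65 (two-sided exact permutation p = 0.1 and 0.2 before adjustment).

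Cgn and Cgnl1 encode cingulin and paracingulin, related coiled-coil proteins on the cytoplasmic face of the junction that bind ZO-1. Cgn had 31.4, 30.4 and 34.5 CPM in WT replicates 1, 2 and 3, and 41.0, 36.9 and 34.9 CPM in Ocln-KO replicates 1, 2 and 3. The Ocln-KO libraries were the higher ones, but WT replicate 3 and Ocln-KO replicate 3 were almost level. At 0.23, the log2 fold change was not called (standard error 0.10, 95% interval -0.01 to 0.46, Benjamini-Hochberg adjusted p = 0.180 in edgeR's quasi-likelihood test), nor was the 0.28 found without Ocln-KO replicate 3 (adjusted p = 0.159, same test and adjustment).

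Cgnl1 went the other way. It had 131, 146 and 133 CPM in WT replicates 1, 2 and 3, and 114, 98.2 and 81.4 CPM in Ocln-KO replicates 1, 2 and 3. Each Ocln-KO library was below each WT library, with Ocln-KO replicate 3 the lowest. Cgnl1 had a log2 fold change of -0.48 (standard error 0.13, 95% interval -0.78 to -0.18), the farthest from 0 among the 9 genes, and missed the threshold (Benjamini-Hochberg adjusted p = 0.0574 in edgeR's quasi-likelihood test). It was -0.36 without Ocln-KO replicate 3 (adjusted p = 0.0668, same test and adjustment). Cgnl1 was called in 3 of 15 alternatives: with DESeq2 (adjusted p = 0.0142), with no count filter (0.0369) and without Ocln-KO replicate 1 (0.0325), while over the 15 the adjusted p ran up to 0.156.

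The ratio of Cgn to Cgnl1 counts within a library was 0.240, 0.209 and 0.260 in WT replicates 1, 2 and 3, and 0.359, 0.376 and 0.429 in Ocln-KO replicates 1, 2 and 3. The genotypes did not overlap, and the balance between the cingulins was shifted toward Cgn in each Ocln-KO library. The ratio was 1.64 times higher in Ocln-KO, a log2 difference of 0.72 (exact permutation test, two-sided p = 0.1, the smallest this design allows, and 0.2 adjusted over the 4 ratios), and without Ocln-KO replicate 3 this difference was 0.64 (two-sided exact permutation p = 0.1 before adjustment). These ratios were not independent of the scaled levels of the same genes given above.

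**Figure D2:**
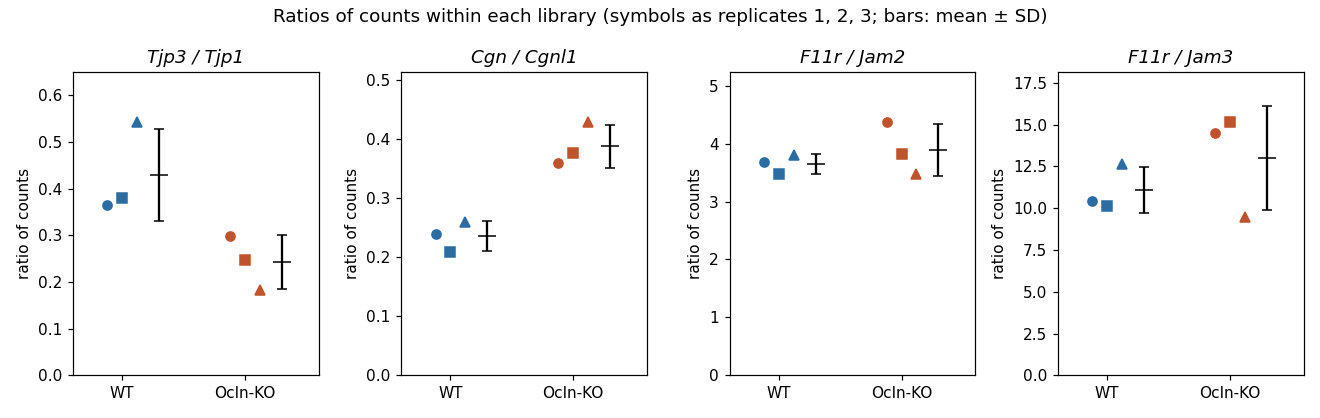
Ratio of the counts of 2 genes (vertical axes, from 0, no unit) in each of the 3 WT and 3 Ocln-KO libraries, with circles, squares and triangles for replicates 1, 2 and 3 and bars for the mean ± SD. The genotypes do not overlap for Tjp3 to Tjp1, lower in Ocln-KO, or for Cgn to Cgnl1, higher in Ocln-KO, and they overlap for F11r to Jam2 and F11r to Jam3.

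F11r, Jam2 and Jam3 encode JAM-A, JAM-B and JAM-C, adhesion proteins of the immunoglobulin superfamily; JAM-A is found on epithelia, endothelia and blood cells, and JAM-B and JAM-C bind each other across neighbouring cells. None of these genes was called. F11r had 116, 118 and 122 CPM in WT replicates 1, 2 and 3, and 138, 121 and 105 CPM in Ocln-KO replicates 1, 2 and 3. The WT libraries were close together, while Ocln-KO replicate 1 was above and Ocln-KO replicate 3 below each of them, so that the means, 119 ± 2.99 and 121 ± 16.6 CPM (SD, n = 3 each), were almost the same. F11r had a log2 fold change of 0.03 (95% interval -0.23 to 0.28, Benjamini-Hochberg adjusted p = 0.890 in edgeR's quasi-likelihood test). Without Ocln-KO replicate 3 it was 0.12 (adjusted p = 0.461, same test and adjustment), and without Ocln-KO replicate 1 it was -0.07 (adjusted p = 0.703, same test and adjustment), so that its sign rested on single libraries.

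Jam2 had similar levels in the 6 libraries, at 31.6, 34.1 and 32.0 CPM in WT replicates 1, 2 and 3, and 31.6, 31.5 and 30.3 CPM in Ocln-KO replicates 1, 2 and 3. Its log2 fold change was -0.06 (95% interval -0.26 to 0.13, Benjamini-Hochberg adjusted p = 0.658 in edgeR's quasi-likelihood test), and it turned positive when libraries were scaled by total counts or by the epithelial genes, up to 0.02. Jam3 had the fewest counts of the 9 genes, between 254 and 417 in a library. Its levels were 11.1, 11.6 and 9.64 CPM in WT replicates 1, 2 and 3, and 9.54, 7.97 and 11.1 CPM in Ocln-KO replicates 1, 2 and 3. Here Ocln-KO replicate 3 was the highest Ocln-KO library, the only case among the 9 genes in which it was not the lowest of that genotype. For Jam3 the log2 fold change was -0.18 (95% interval -0.58 to 0.22, Benjamini-Hochberg adjusted p = 0.532 in edgeR's quasi-likelihood test). It was -0.30 without Ocln-KO replicate 3 but -0.06 without Ocln-KO replicate 2 (adjusted p = 0.294 and 0.852, same test and adjustment). For Jam2 it was -0.05 without Ocln-KO replicate 3 and -0.03 without WT replicate 2 (adjusted p = 0.822 and 0.877, same test and adjustment). The level of Jam3 is uncertain, because 36.2% of its exon bases in GENCODE M21 are shared with Gm48796 on the opposite strand and the strand setting of the counting was not given in the sources used here.

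Ratios among the JAM genes overlapped between the genotypes. That of F11r to Jam2 was 3.67, 3.47 and 3.81 in WT replicates 1, 2 and 3, and 4.36, 3.83 and 3.47 in Ocln-KO replicates 1, 2 and 3 (log2 difference 0.08, two-sided exact permutation p = 0.5, adjusted over the 4 ratios 0.5). This difference was 0.16 without Ocln-KO replicate 3 but -0.0023 without Ocln-KO replicate 1 (two-sided exact permutation p = 0.1 and 0.9 before adjustment). That of F11r to Jam3 ran from 10.2 to 12.7 in WT and from 9.46 to 15.1 in Ocln-KO (log2 difference 0.21, two-sided exact permutation p = 0.4, adjusted over the 4 ratios 0.5). It depended on single libraries, with differences of 0.12, 0.09 and 0.42 when Ocln-KO replicate 1, 2 or 3 was left out (two-sided exact permutation p = 0.7, 0.7 and 0.2 before adjustment).

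Pard3 encodes PAR-3, the polarity scaffold that JAM-A and JAM-C bind and that brings PAR-6 and atypical protein kinase C to the junction. It was nearly level across the libraries, at 81.1, 80.4 and 81.8 CPM in WT replicates 1, 2 and 3, and 88.9, 83.6 and 80.8 CPM in Ocln-KO replicates 1, 2 and 3. Only Ocln-KO replicate 1 stood clearly above the WT libraries. Its difference on the log2 scale was 0.06 (standard error 0.08, 95% interval -0.13 to 0.24, Benjamini-Hochberg adjusted p = 0.673 in edgeR's quasi-likelihood test). It was 0.09 without Ocln-KO replicate 3 (adjusted p = 0.578, same test and adjustment).

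Magi1 encodes MAGI-1, a scaffold with several PDZ domains and a pair of WW domains that sits at tight and adherens junctions. It had 29.2, 31.9 and 26.6 CPM in WT replicates 1, 2 and 3, and 40.0, 43.4 and 37.5 CPM in Ocln-KO replicates 1, 2 and 3. Each Ocln-KO library was above each WT library, and the highest was Ocln-KO replicate 2. The mean level rose, from 29.2 ± 2.65 to 40.3 ± 2.97 CPM (SD, n = 3 each) or by a factor of 1.38. The log2 fold change was 0.46 (standard error 0.11, 95% interval 0.22 to 0.71, Benjamini-Hochberg adjusted p = 0.0385 in edgeR's quasi-likelihood test). It was 0.51 without Ocln-KO replicate 3 (adjusted p = 0.0349, same test and adjustment).

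Over the 15 alternatives the log2 fold change of Magi1 ran from 0.40 to 0.55 and the adjusted p from 0.00642 to 0.133, with 8 of the 15 under 0.05. Among the settings that lost this call were those without WT replicate 1, 2 or 3 (Benjamini-Hochberg adjusted p = 0.133, 0.0741 and 0.123, edgeR's quasi-likelihood test) and without Ocln-KO replicate 1 or 2 (0.0564 and 0.101). It was also lost with the scaling by epithelial genes (log2 fold change 0.55, adjusted p = 0.0887, same test and adjustment).

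**Figure D3:**
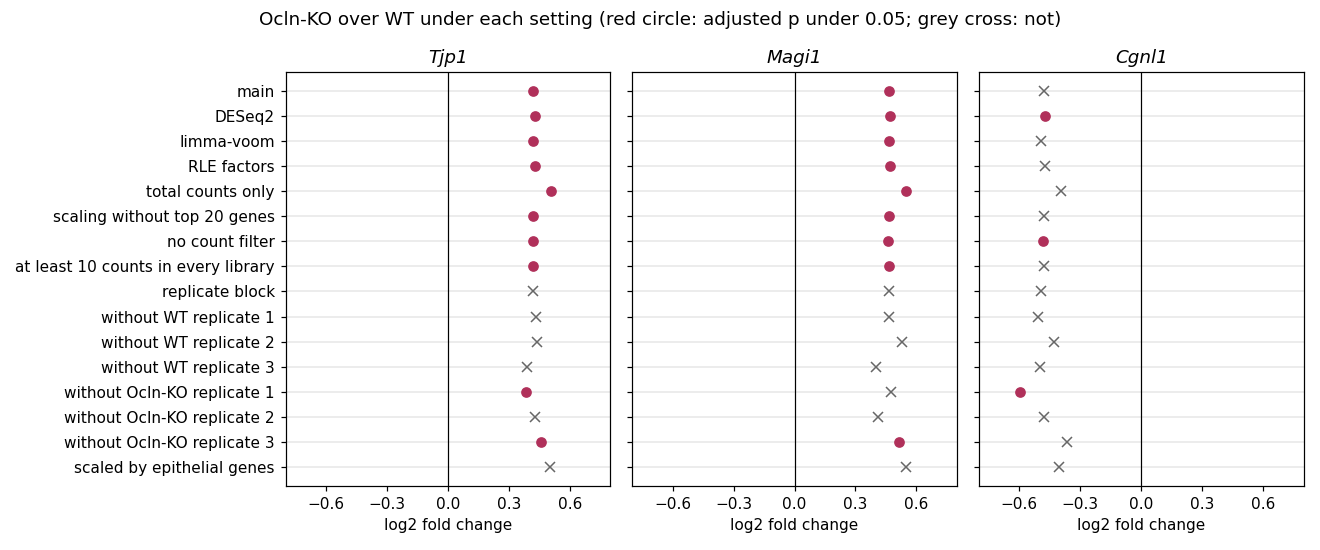
Log2 fold change of Ocln-KO over WT (horizontal axes) for Tjp1, Magi1 and Cgnl1 under the main settings and 15 alternatives (rows), with red circles where the adjusted p was under 0.05 and grey crosses where it was not. Tjp1 and Magi1 stay positive in each setting, from 0.38 to 0.51 and from 0.40 to 0.55, and Cgnl1 stays negative, from -0.60 to -0.36, while the adjusted p falls on either side of the threshold. The genotypes do not overlap for these genes, so leaving out a library could hardly change the sign.

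The genes with log2 fold changes farthest from 0, Magi1, Tjp1, Cgnl1 and Tjp3, are shown with the 250 bases before a RefSeq start site. Promoter sequences were found for 7 of the 9 genes, with 10 start sites among them; Jam2 and Jam3 had no entry. The motifs searched, each on both strands, were GGGCGG or, on the opposite strand, CCGCCC for GC boxes, CAGGTG or its reverse complement CACCTG for E-boxes, AACCGG or its reverse complement CCGGTT for Grainyhead sites, and GGAATG or its reverse complement CATTCC for TEAD sites. Capitals mark matches, none of which overlap in the windows shown. Each sequence is from RefSeq on GRCm38.p6, read 5′ to 3′ on the minus strand, the strand of the gene, and the windows hold no exon base in GENCODE M21.
Tjp1: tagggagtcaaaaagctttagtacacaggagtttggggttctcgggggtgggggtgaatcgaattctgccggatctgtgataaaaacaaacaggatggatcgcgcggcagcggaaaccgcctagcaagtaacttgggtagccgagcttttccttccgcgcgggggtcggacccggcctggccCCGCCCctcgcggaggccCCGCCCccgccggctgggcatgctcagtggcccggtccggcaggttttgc
Magi1: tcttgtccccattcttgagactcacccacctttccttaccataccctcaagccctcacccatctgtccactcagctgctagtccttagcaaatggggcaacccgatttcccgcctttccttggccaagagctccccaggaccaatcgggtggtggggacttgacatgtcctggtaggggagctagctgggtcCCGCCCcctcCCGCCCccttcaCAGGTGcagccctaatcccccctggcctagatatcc
Cgnl1: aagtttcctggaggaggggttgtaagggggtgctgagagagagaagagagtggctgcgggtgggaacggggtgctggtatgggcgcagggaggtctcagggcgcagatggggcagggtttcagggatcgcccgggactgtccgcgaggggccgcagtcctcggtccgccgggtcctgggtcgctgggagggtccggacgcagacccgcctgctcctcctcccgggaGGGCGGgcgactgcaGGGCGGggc
Tjp3: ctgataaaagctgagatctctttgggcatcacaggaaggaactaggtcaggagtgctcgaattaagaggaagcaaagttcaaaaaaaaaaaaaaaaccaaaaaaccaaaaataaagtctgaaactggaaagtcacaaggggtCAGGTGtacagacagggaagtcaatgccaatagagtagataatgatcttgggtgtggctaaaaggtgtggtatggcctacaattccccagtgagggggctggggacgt

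The Tjp1 window is at chr7:65371245-65371494, that of Magi1 at chr6:93913691-93913940, that of Cgnl1 at chr9:71771603-71771852 and that of Tjp3 at chr10:81291582-81291831. Those of Tjp1, Magi1 and Cgnl1 lie inside the RefSeq span of the gene (chr7:65296165-65527850, chr6:93675453-94283929 and chr9:71626507-71809300), before a start within it, and the counts do not tell which start was used. That of Tjp3 lies just outside the gene (chr10:81273188-81291581). GGGCGG occurred 2 times in each of the windows of Tjp1, Magi1 and Cgnl1 and not in that of Tjp3, and CAGGTG occurred 1 time in each of those of Magi1 and Tjp3. Tjp1 and Magi1, called higher, and Cgnl1, lower in each Ocln-KO library, held GGGCGG equally often in the windows shown, but the second window of Magi1 (chr6:93912964-93913213) held none of the 4 motifs. Among the 32851 promoter windows of this length in the RefSeq table, 32.7% held GGGCGG, 17.2% CAGGTG, 5.62% AACCGG and 12.6% GGAATG. Of the 10 windows of the 9 genes, 6 held GGGCGG, 5 CAGGTG (the second Tjp3 window, chr10:81291268-81291517, among them), 1 AACCGG and 0 GGAATG. G and C made up 63.2% of the Tjp1 window, 59.6% of that of Magi1, 70.8% of that of Cgnl1 and 43.2% of that of Tjp3, against a median of 52.4% over all windows. A match describes the letters of the window and says nothing of binding.

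Levels of different genes can be compared only per length, and CPM were divided by the kilobases of each gene's exons in GENCODE M21. On this scale F11r was the most abundant of the 9 genes in WT, at 44.6 ± 1.12 CPM per kb (SD, n = 3). Tjp1, Tjp3 and Cgnl1 followed at 21.2, 19.0 and 17.4 CPM per kb, and the WT libraries of neighbours among them overlapped. Pard3, Jam2 and Cgn, at 5.59, 5.39 and 5.33 CPM per kb, overlapped in the same way. Jam3 and Magi1 were the lowest, at 3.38 and 2.76 CPM per kb, and did not overlap. For scale, Ocln had 20.3 CPM per kb in WT, close to the levels of Tjp1 and Tjp3, and 3.58 in Ocln-KO. In Ocln-KO the order changed in 2 places. Cgn, at 6.24 CPM per kb, came before Pard3 at 5.82 and Jam2 at 5.15, where Cgn and Pard3 overlapped, and Magi1, at 3.81, came before Jam3 at 2.98 with no overlap. Tjp1, at 28.4 CPM per kb in Ocln-KO, no longer overlapped Tjp3, at 14.6, which overlapped Cgnl1, at 12.5.

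**Figure D4:**
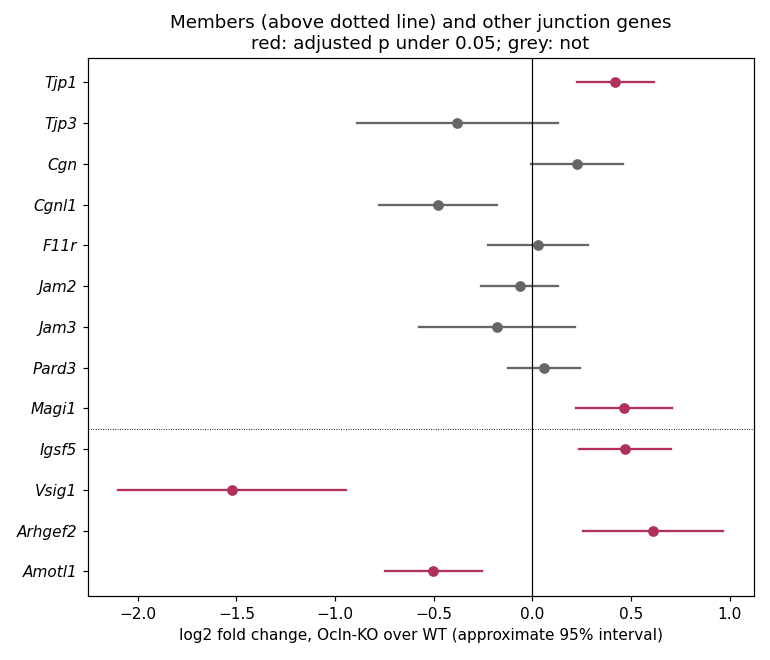
Log2 fold change of Ocln-KO over WT (horizontal axis) with its approximate 95% interval for the 9 genes (above the dotted line) and the 4 other junction genes that were called. Red marks an adjusted p under 0.05; Magi1 at 0.46 and Tjp1 at 0.42 are the called genes above the line, and Vsig1 at -1.52 is the farthest from 0 below it.

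Other genes of these junctions were described from 4 fixed lists of 52 genes, of which 51 were tested and Gpa33 was too low. In the quasi-likelihood test of edgeR, with Benjamini-Hochberg adjustment over all genes, 2 were called higher (Igsf5 and Arhgef2) and 2 lower (Vsig1 and Amotl1). This was 7.84% of the 51, beside 8.95% of all tested genes, and the median log2 fold change was -0.02, beside 0.01. Before adjustment 10 of the 51 had a p under 0.05, a smaller share than the 29.1% of all tested genes. Among 11 scaffolds that included Magi2, Magi3, Mpdz and Mllt4 (afadin), 0 were called in either direction by edgeR, limma-voom or DESeq2, and 1 (Mllt4) had an unadjusted p under 0.05. Among 18 genes of the PAR, Crumbs and Scribble polarity complexes 0 were called by edgeR or limma-voom, and 2 had an unadjusted p under 0.05 in edgeR. DESeq2 called Crb3 of this list, which had 34.2 ± 3.71 CPM in WT against 25.7 ± 1.47 CPM in Ocln-KO (SD, n = 3 each; log2 fold change -0.41, Benjamini-Hochberg adjusted p = 0.0571 in edgeR's quasi-likelihood test).

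Among 9 tested genes of adhesion proteins related to the JAMs, 1 was called higher and 1 lower. Igsf5 encodes JAM4, a protein known to bind MAGI-1. It had 44.7, 49.5 and 39.6 CPM in WT replicates 1, 2 and 3, and 62.0, 60.04 and 63.1 CPM in Ocln-KO replicates 1, 2 and 3, so that each Ocln-KO library was higher. Its log2 fold change was 0.47 (standard error 0.10, Benjamini-Hochberg adjusted p = 0.0351 in edgeR's quasi-likelihood test), and 0.45 without Ocln-KO replicate 3 (adjusted p = 0.0458, same test and adjustment). Of the exon bases of Igsf5, 31.2% are shared with another GENCODE entry of the same name, so its level is uncertain. Vsig1 encodes an adhesion protein of the same superfamily. It had 10.96, 9.88 and 15.3 CPM in WT replicates 1, 2 and 3, and 5.42, 3.55 and 3.61 CPM in Ocln-KO replicates 1, 2 and 3, and each Ocln-KO library was lower. The log2 fold change of Vsig1 was -1.52 (standard error 0.25, Benjamini-Hochberg adjusted p = 0.0203 in edgeR's quasi-likelihood test), and -1.43 without Ocln-KO replicate 3 (adjusted p = 0.0178, same test and adjustment).

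Among the 13 genes of the fourth list, which included the angiomotin genes and Plekha7, again 1 was called higher and 1 lower. Arhgef2 encodes GEF-H1, which cingulin binds. It had 26.2, 24.0 and 26.0 CPM in WT replicates 1, 2 and 3, and 30.8, 38.2 and 47.4 CPM in Ocln-KO replicates 1, 2 and 3, with Ocln-KO replicate 3 the highest. Its log2 fold change was 0.61 (standard error 0.15, Benjamini-Hochberg adjusted p = 0.0488 in edgeR's quasi-likelihood test), and without Ocln-KO replicate 3 it was 0.44 and no longer called (adjusted p = 0.0748, same test and adjustment). Amotl1, which encodes angiomotin-like 1, a junction protein that binds actin, had 192, 176 and 183 CPM in WT replicates 1, 2 and 3, and 141, 136 and 112 CPM in Ocln-KO replicates 1, 2 and 3. Each Ocln-KO library was lower. The log2 fold change of Amotl1 was -0.50 (standard error 0.11, Benjamini-Hochberg adjusted p = 0.0332 in edgeR's quasi-likelihood test), and -0.41 without Ocln-KO replicate 3 (adjusted p = 0.0342, same test and adjustment). Each of these 4 calls was lost without WT replicate 1 (adjusted p from 0.0917 for Vsig1 to 0.147 for Arhgef2, same test and adjustment), WT replicate 2 (0.0504 for Vsig1 to 0.135 for Arhgef2), WT replicate 3 (0.0827 for Vsig1 to 0.145 for Arhgef2) or Ocln-KO replicate 2 (0.0535 for Vsig1 to 0.105 for Arhgef2), and that of Igsf5 also without Ocln-KO replicate 1 (0.0506). The call of Arhgef2 was also lost with limma-voom (adjusted p = 0.0593) and with factors that left out the 20 most abundant genes (0.0507), and that of Amotl1 with total counts (0.0501). With the scaling by epithelial genes Vsig1 alone of the 4 was called. Over the 15 alternatives their adjusted p ran from 1.31e-06 for Vsig1 with DESeq2 to 0.147.

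Most of the 9 genes ranked the Ocln-KO libraries alike. Ocln-KO replicate 1 was the highest of its genotype for 7 of them and Ocln-KO replicate 3 the lowest for 8, with both holding for 7, against 36.5%, 37.1% and 21.8% of all tested genes. Summed over the 9 genes, the level was 662, 687 and 683 CPM in WT replicates 1, 2 and 3, and 768, 696 and 629 CPM in Ocln-KO replicates 1, 2 and 3. A sum was also taken over 10 general epithelial genes, of which Krt18 had the highest mean CPM in Ocln-KO, not corrected for length. This sum came to 1952, 2008 and 2223 CPM in WT, and to 2219, 1874 and 1748 CPM in Ocln-KO, in the same order of replicates. In this sum, Ocln-KO replicate 1 was the highest and replicate 3 the lowest of the Ocln-KO libraries. Not every gene of the list had that order: Krt19 and Esrp2 were highest in Ocln-KO replicate 3, and Grhl2 and Cldn7 lowest in Ocln-KO replicate 2. The other genes of the list had the order of the sum. Of these 10 epithelial genes 1 was called higher (Krt19) and 0 lower by edgeR, with 3 at an unadjusted p under 0.05, and the part of epithelial content in the levels of the 9 genes was not tested beyond the scaling given above.

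Markers of other cells also moved with the genotype. For the counts at an unadjusted p under 0.05, here and in the next paragraph, the share over all tested genes was 29.1%. For the called genes it was 3.91% higher and 5.04% lower. All 6 clear cell genes were lower in each Ocln-KO library than in each WT library, beside 19.4% of all tested genes. Of the 6, 4 were called lower and 6 of 6 had an unadjusted p under 0.05. Their sum was 222, 188 and 267 CPM in WT replicates 1, 2 and 3, and 92.5, 105 and 58.8 CPM in Ocln-KO replicates 1, 2 and 3. Car2 had the highest mean CPM of these genes, not corrected for length. Leukocyte genes, whose cells also carry JAM-A, summed to 104, 94.3 and 91.1 CPM in WT, and to 118, 166 and 214 CPM in Ocln-KO. Of 7 tested 1 was called higher (Ptprc) and 6 had an unadjusted p under 0.05. Csf1r had the highest mean CPM of this list, and S100a8 had at most 3 counts in every library. The 6 smooth muscle genes summed to 1215, 1429 and 1183 CPM in WT, and to 1616, 2187 and 1800 CPM in Ocln-KO. Acta2 had the highest mean CPM of them in WT and Myh11 in Ocln-KO, not corrected for length. Of the 6, 2 were called higher (Myh11 and Actg2) and 6 of 6 had an unadjusted p under 0.05. In each Ocln-KO library 3 of the 6 were above each WT library, beside 16.9% of all tested genes. The part of these cells in the results for the 9 genes was not tested.

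Endothelial genes, whose cells also carry JAM proteins, did not all go the same way. They summed to 183, 167 and 158 CPM in WT, and to 135, 158 and 176 CPM in Ocln-KO, with 7 of 9 tested positive in log2 fold change. Of the 9, 1 was called lower (Egfl7, with the highest mean CPM in WT). An unadjusted p under 0.05 was found for 3, near the share over all tested genes, and Cldn5 had no more than 3 counts in every library. The 6 basal cell genes, with Itga6 the highest in mean CPM in WT, summed to 269, 259 and 271 CPM in WT, and to 310, 262 and 314 CPM in Ocln-KO. Of these, 1 was called higher (Krt14) and 2 had an unadjusted p under 0.05. By mean CPM, not corrected for length, Col1a1 was the highest fibroblast gene in WT and Odf1 the highest of the spermatid and sperm genes. In Ocln-KO they were Col3a1 and Smcp. Of the fibroblast genes and of the spermatid and sperm genes, 0 were called by edgeR with all 6 libraries, and 2 and 0 had an unadjusted p under 0.05; without Ocln-KO replicate 3, 1 sperm gene was called higher (Tnp1, adjusted p = 0.0364). Adipocyte genes, with Cfd the highest in mean CPM in WT and Fabp4 in Ocln-KO, summed to 10.3 ± 3.45 CPM in WT against 2.91 ± 2.31 CPM in Ocln-KO (SD, n = 3 each). By edgeR 0 of 6 were called, and 3 had an unadjusted p under 0.05. Without Ocln-KO replicate 3, Cfd was called lower by edgeR (adjusted p = 0.0381). Blood genes, with Hbb-bs the highest in mean CPM, summed to 34.4 ± 14.0 CPM in WT against 9.48 ± 3.58 CPM in Ocln-KO (SD, n = 3 each). Of 5 tested, 1 was called lower (Alas2) and 5 had an unadjusted p under 0.05. The part of these lists in the levels of the 9 genes was not tested.

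**Figure D5:**
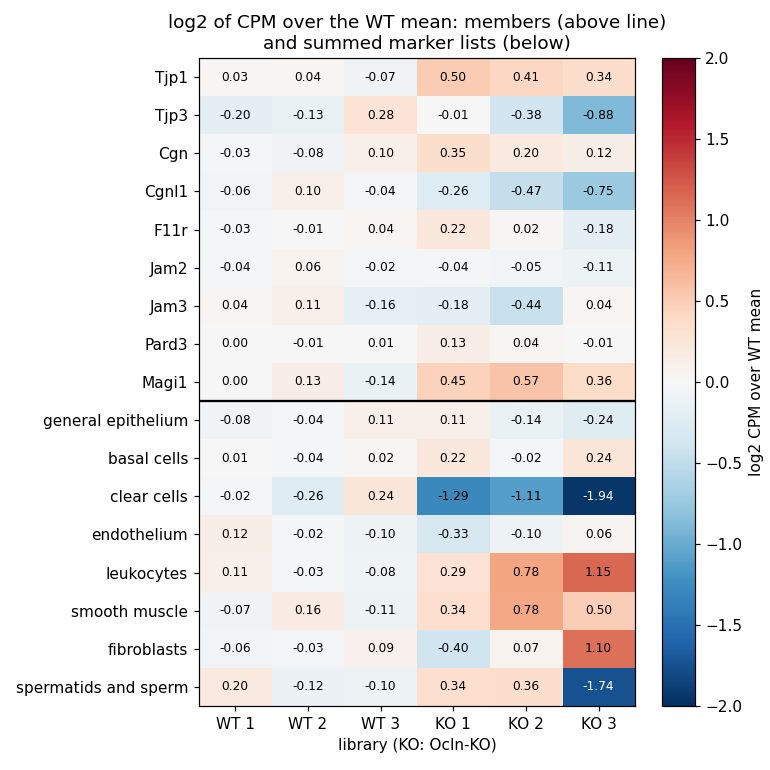
Log2 of the CPM in each library over the WT mean, for the 9 genes (above the line) and for the summed CPM of 8 marker lists (below), with libraries in columns and red for above and blue for below the WT mean. Tjp1 is between 0.34 and 0.50 and Magi1 between 0.36 and 0.57 in the Ocln-KO libraries, Cgnl1 is between -0.75 and -0.26, and the clear cell sum is between -1.94 and -1.11; Ocln-KO replicate 3 departs from the other Ocln-KO libraries for fibroblasts (1.10) and sperm (-1.74).

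For each of the 9 genes, the gene with the most similar pattern over the 6 libraries was found among 16357 tested genes with a mean of at least 1 CPM, by the root mean square difference of log2 CPM centred on each gene's mean. For Tjp1 it was Phf14 (0.0261), for Tjp3 Stard5 (0.0514), for Cgn Zbtb21 (0.0259) and for Cgnl1 Frmpd4 (0.0563). For F11r it was Fabp5 (0.0279), for Jam2 Slc17a5 (0.0150), for Jam3 Adam23 (0.0399), for Pard3 Clip1 (0.0151) and for Magi1 Ascc3 (0.0514). None of the 9 genes was thus nearest to another of them, but with 16357 genes compared over 6 libraries nothing is read from that. The rank of the nearest other gene of the 9 ran from 41 for Magi1 to 1752 for Jam3. The closest pair within the 9 was Pard3 and Jam2, genes that hardly varied (0.0765), and Magi1 and Tjp1 were nearest each other among the 9 (0.0817), with Tjp1 at rank 41 for Magi1 and Magi1 at rank 158 for Tjp1.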

How the data were processed

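Counts per gene were analysed for 3 WT and 3 Ocln-KO libraries, and 0 columns were unmatched. The authors depleted rRNA, made directional libraries, aligned paired reads to GRCm38 with HISAT2 2.0.4 (submitters' processing notes) and counted with HTSeq; each deposited value is a raw, unscaled count of reads per gene, and the strand setting was not given in the sources used here. Counts were scaled by TMM factors, filtered by filterByExpr (19691 genes) and compared by edgeR 4.0.16's quasi-likelihood test (R 4.3.3) with Benjamini-Hochberg adjustment over all genes. Standard errors are the log2 fold change over the root of F. Ratios had exact permutation tests. Alternatives were DESeq2 1.42.0, limma-voom (limma 3.58.1), RLE factors, total counts, factors without the 20 most abundant genes, other count filters, a replicate block, a 2-fold threshold, each library left out and, chosen after seeing the data, scaling by epithelial genes. The fits were also tested on simulated counts, and no result of that is given or used here. Exon lengths were from GENCODE M21 and coordinates from RefSeq (GRCm38.p6). Named genes are the 9, Ocln, list genes with an adjusted p under 0.05, the nearest patterns and each marker list's gene with the highest mean CPM. That ranking by CPM was not corrected for length. Crb3, Rock1, Adam7 and other marker genes were named for their roles or after their values were seen. The 9 genes and the lists were chosen with earlier results of these data known. The proteomes were not used here, and some results are not reported here.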

Additional observations from a re-analysis of the deposited data

How the results depend on the processing

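Limits were few libraries, a whole organ and a strand setting not given, and Jam3 had the fewest counts of the 9 genes, 254 to 417. Against 2 genes of the 9 higher and 0 lower, 1762 genes called in all and 4 of the other junction genes, DESeq2 gave 1 lower, 3312 in all and 7 others, and no count filter gave 1 lower. With a fold change over 2 required as well, 0 of the 9 were higher, 628 genes were called in all and 1 other junction gene. Scaling by epithelial genes, chosen after seeing the data, gave 0 higher, 805 in all and 1 other. With a library left out, the genes higher ran from 0 to 2, those lower from 0 to 1, those called in all from 23 to 1692 and the other junction genes from 0 to 4. Genes called in all were 1657 and 1692 without Ocln-KO replicate 1 or 3. They were 23, 230 and 56 without WT replicate 1, 2 or 3, and 562 without Ocln-KO replicate 2. Each of these fits left out 1 library, and the cause of the differences was not tested. The ratio of F11r to Jam2 reversed without Ocln-KO replicate 1, from a log2 difference of 0.08 to -0.0023, and with a library left out it ran from -0.0023 to 0.16. With the replicate block, 0 of the 9 were higher (adjusted p = 0.0948 for Tjp1 and 0.0889 for Magi1, edgeR's quasi-likelihood test). In all, 41 genes were then called, and 0 of the other junction genes. Whether the replicate numbers pair the libraries was not given in the sources used here. Deviations from the genotype mean had correlations from -0.0525 to -0.0026 between libraries with the same number, and 0 of 6 correlated best with its own number. With 3 libraries of each genotype this check cannot exclude a pairing, and nothing is read from it.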
